A study of Mesocricetus auratus with 14 samples.

Results

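Genes that mark liver macrophages were followed in bulk RNA sequencing of liver from golden hamsters (Mesocricetus auratus). The list held 10 genes, chosen by symbol: Ctss, Laptm5, Mpeg1, Cd68, Csf1r, Timd4, Clec4f, Marco, Vsig4 and Cd163. A row was found by symbol for 9 of them among 10023 genes with a symbol, and all 9 passed the filter on low counts, among 12166 tested of 22283 listed genes. Cd68 was not matched to a row and is not analysed here. The study set 7 control livers against 7 livers from the group given DC371739, which the labels name by this code alone. All 14 samples, controls included, came from the high-fat diet (HFD). Dose, duration, strain, age and sex were not among the labels. Nor do the labels tie each sample to its own animal, and the p-values then measure only the spread between samples.

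Kupffer cells are the resident macrophages of the liver. They sit in the sinusoids, clear particles, dying cells and old red cells from the blood, and depend on signalling through the receptor CSF1R. In mice the resident cells are recognised by surface proteins such as TIMD4, CLEC4F, MARCO, VSIG4 and CD163, whereas lysosomal and phagocyte genes such as Ctss, Laptm5 and Mpeg1 are shared with monocytes and macrophages recruited from the blood. Whole-liver RNA is dominated by hepatocytes, so that a marker's level combines the number of macrophages with the RNA each holds, and fewer cells of a type cannot be told apart from less RNA per cell.

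Libraries held 13672589 to 23948628 counts. Control replicates 6 and 7 and DC371739 replicate 7 were the 3 deepest (22152239 to 23948628 counts, against 13672589 to 16710097 in the other 11), and they stood apart in the levels of several markers. The labels name no batch. With 2 control libraries and 1 treated library, the deeper class gave no comparison of its own. The treatment difference was therefore fitted over all 14 libraries, with a term for library class in the model, and over the 11 shallower libraries (5 control, 6 DC371739).

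Treated and control livers were compared to ask which of these transcripts differed. The 3 lysosomal and phagocyte genes, Ctss, Laptm5 and Mpeg1, rose by 1.63-fold to 1.75-fold and passed the test over all 14 libraries. Csf1r and Timd4 stood 1.54-fold and 1.41-fold higher and lay just outside the threshold. Clec4f and Marco were 1.28-fold and 1.25-fold higher without passing, Vsig4 was level at 1.01-fold, and Cd163 was at 0.681-fold with a wide interval. Log2 fold changes were positive for 8 of the 9, with a median of 0.50, beside a median of -0.02 over all tested genes. By edgeR's quasi-likelihood test with Benjamini-Hochberg adjustment over all tested genes, 3 of the 9 passed an adjusted p of 0.05, all higher. Of all tested genes 1.24% passed as higher and 1.85% in either direction. The markers were listed with earlier results of these data known, so this count is a description and no independent support. When library class was added to the model, 6 of the 9 rose, where 5.62% of all genes did. Over the 11 shallower libraries 5 rose, where 11% of all genes did. None fell in any of the 3 fits.

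**Figure D1:**
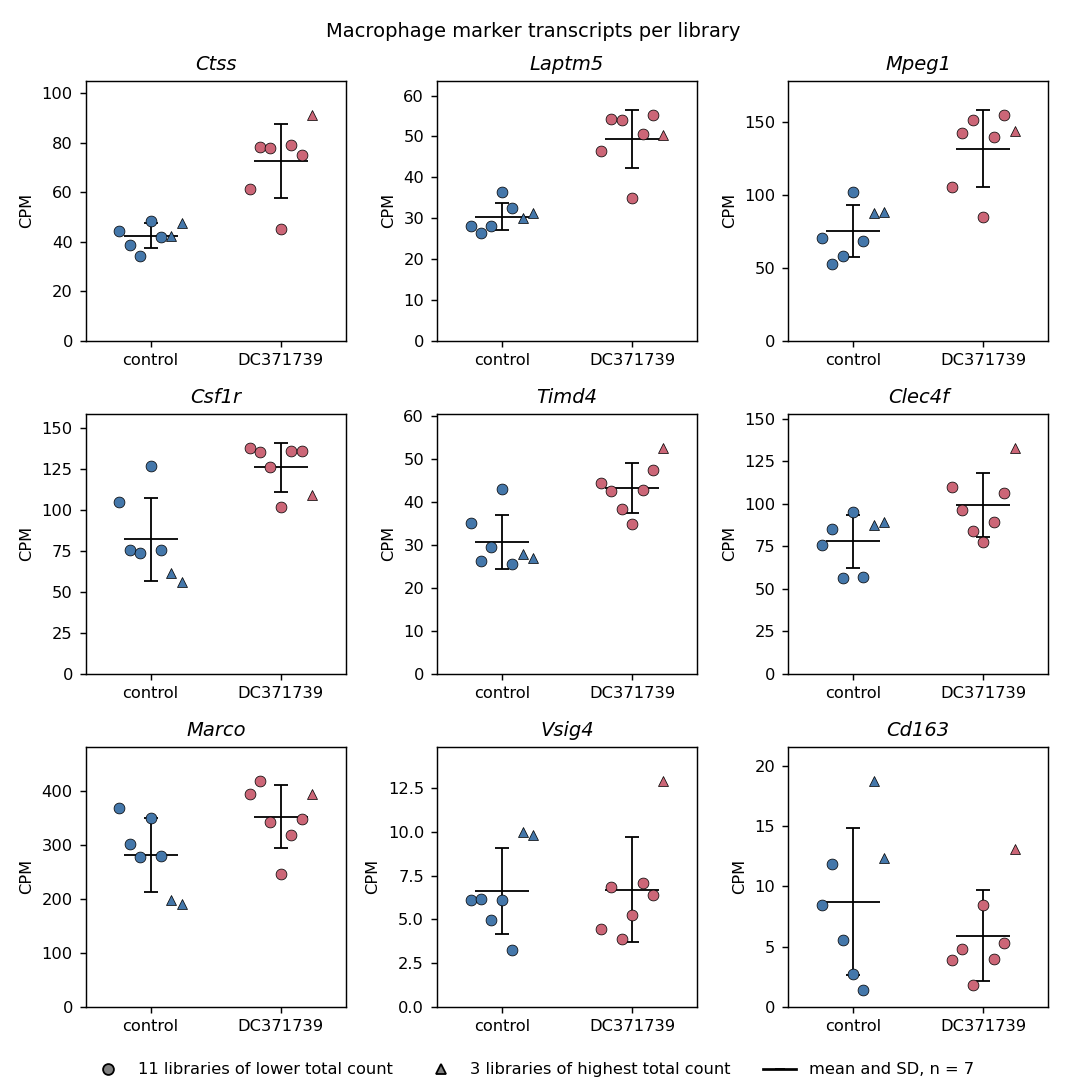
CPM (linear axes from 0) of the 9 markers in each of 7 control and 7 DC371739 libraries, with mean and SD; triangles are the 3 libraries of highest total count. For Ctss, Laptm5 and Mpeg1, 6 of 7 DC371739 libraries lie above every control library, while Vsig4 and Cd163 overlap throughout.

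Ctss encodes cathepsin S, a lysosomal cysteine protease that trims the invariant chain in antigen-presenting cells. Its level was 34.1 CPM at the lowest, 42.2 at the median and 48.3 at the highest in control libraries, and 45.2, 77.8 and 91.3 CPM in DC371739 libraries. CPM are counts scaled to a library total of 1000000 after TMM normalization. DC371739 replicate 4 lay within the control range, and the other 6 DC371739 libraries lay above all controls. The means were 42.4 ± 4.94 and 72.6 ± 14.9 CPM (SD, n = 7 each), a 1.71-fold difference (95% interval 1.43 to 2.04, adjusted p = 0.0155). On the log2 scale this was 0.77, beside 0.80 with the class term (adjusted p = 0.00276) and 0.75 over the shallower libraries (adjusted p = 0.00339). The deeper libraries showed the same order, at 42.2 and 47.6 CPM in the controls and 91.3 CPM in the DC371739 library. The count table gives exon coordinates on named scaffolds without a build. There Ctss (ENSMAUG00000021301) lies on the minus strand of scaffold KB708292.1 from 2909193 to 2950343. Its counts cover 7 exon blocks of 906 bases in all.

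Laptm5 encodes a lysosomal membrane protein of blood cells that takes part in the turnover of immune receptors. Among the markers it had the smallest p and the steadiest control level, with a coefficient of variation of 11.1%. Control libraries ran from 26.3 through a median of 30.1 to 36.4 CPM, and DC371739 libraries from 34.9 through 50.6 to 55.3 CPM. Again DC371739 replicate 4 alone fell inside the control range, below control replicate 4. Means of 30.4 ± 3.38 and 49.4 ± 7.08 CPM gave a 1.63-fold rise (95% interval 1.41 to 1.88, adjusted p = 0.0101), which placed it at rank 6 of all tested genes by p. Its log2 fold change of 0.70 was 0.71 both with the class term (adjusted p = 0.00209) and over the shallower libraries (adjusted p = 0.00193). The gene (ENSMAUG00000013566) spans 4060051 to 4082931 on the plus strand of KB708219.1, with 8 exon blocks of 2119 bases.

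Mpeg1 encodes perforin-2, a pore-forming protein of the phagosome. It varied more among control livers than the other members of this group. Values were 52.6, 70.2 and 101.8 CPM (lowest, median, highest) in control and 84.6, 142.4 and 154.6 CPM in DC371739 libraries. The highest control was replicate 4 and the lowest treated library was DC371739 replicate 4, which lay below it; the other 6 treated libraries lay above all controls. The difference was 1.75-fold (95% interval 1.40 to 2.18), with an adjusted p of 0.0236. On the log2 scale it was 0.80, with 0.85 under the class term (adjusted p = 0.00760) and 0.89 over the shallower libraries (adjusted p = 0.00875). Mpeg1 lost its call in 6 of the 14 fits that each omit a single library, those without controls 3 and 5 and without treated samples 2, 3, 5 and 6, where its adjusted p reached 0.0674. Ctss and Laptm5 passed in all 14 of these fits. Mpeg1 (ENSMAUG00000010987) spans 45974913 to 45979376 on the minus strand of KB708127.1, where 2 exon blocks make up 4190 bases.

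Csf1r is the receptor for the growth factors CSF1 and IL-34, on which macrophages depend for survival. Control libraries spread from 56.2 to 126.9 CPM around a median of 75.2, and DC371739 libraries from 101.6 to 137.7 CPM around 135.1. All 7 treated libraries lay above the control median and 4 of them above the highest control. The lowest controls were the deeper replicates 6 and 7, at 61.5 and 56.2 CPM, against 73.6 to 126.9 CPM in the other 5. Over all 14 libraries the log2 fold change was 0.62 (SE 0.16, adjusted p = 0.0527). With the class term it was 0.57 (adjusted p = 0.0122), and over the shallower libraries 0.50 (adjusted p = 0.0215). Csf1r (ENSMAUG00000009005) lies at 12584362 to 12614338 on the minus strand of KB708175.1, in 21 exon blocks of 3576 bases. It passed in both fits that treat the deeper libraries apart and missed in the fit that does not. Its growth factors did not pass: Csf1 had a log2 fold change of 0.20 (adjusted p = 0.644) and Il34 of -0.08 (adjusted p = 0.807).

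Timd4 encodes a receptor for phosphatidylserine, by which resident macrophages bind dying cells, and in mouse liver it separates long-lived Kupffer cells from recent arrivals. It ran from 25.6 through 27.8 to 43.0 CPM in control and from 34.9 through 42.7 to 52.6 CPM in DC371739 libraries. Every treated library lay above the control median, and 3 lay above the highest control, replicate 4. The log2 fold change was 0.50 (SE 0.12, adjusted p = 0.0512) over all 14 libraries, 0.50 with the class term (adjusted p = 0.0175) and 0.39 over the shallower libraries (adjusted p = 0.0365). Timd4 (ENSMAUG00000003000) lies at 4971890 to 4998910 on the minus strand of KB708157.1, in 10 exon blocks of 1011 bases. In the authors' deposited table, whose adjusted p-values are over genes with a symbol, Timd4 and Csf1r both passed, at 0.0483 and 0.0491. That table called 5 of the 9 markers, all higher, where it called 1.4% of its genes as higher.

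The remaining 4 markers, lectin, scavenger and complement receptors of Kupffer cells, did not pass over all 14 libraries. Clec4f, a lectin that binds galactose-bearing glycans, stood at 56.1, 85.3 and 95.1 CPM (lowest, median, highest) in control and at 77.8, 96.1 and 132.9 CPM in DC371739 libraries. The groups overlapped, with 4 treated libraries above the highest control. Its log2 fold change was 0.35 (SE 0.14, adjusted p = 0.178). It passed with the class term (0.40, adjusted p = 0.0405) and not over the shallower libraries (0.36, adjusted p = 0.0773). Clec4f (ENSMAUG00000015531) lies at 2574868 to 2582625 on the plus strand of KB708153.1, in 8 exon blocks of 1638 bases.

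Marco, a scavenger receptor for bacteria and particles, was the most abundant marker. It ran from 189.8 through 278.9 to 369.2 CPM in control and from 246.0 through 347.4 to 418.4 CPM in DC371739 libraries. The log2 fold change was 0.33 (SE 0.15, adjusted p = 0.245) over all 14 libraries, 0.31 (SE 0.14, adjusted p = 0.134) with the class term and 0.14 (SE 0.12, adjusted p = 0.448) over the shallower ones. The deeper controls, at 196.9 and 189.8 CPM, were the lowest of all 14 libraries. Marco (ENSMAUG00000001107) lies at 4159897 to 4190481 on the minus strand of KB708148.1, in 15 exon blocks of 1380 bases.

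Vsig4, the complement receptor CRIg that captures opsonised particles, was low at 3.26, 6.11 and 9.98 CPM in control and 3.85, 6.40 and 12.9 CPM in DC371739 libraries. The 3 highest values belonged to the 3 deeper libraries in both groups, and the groups overlapped. Its counts per library were 57 to 293. The fold difference was 1.01 (95% interval 0.696 to 1.46, adjusted p = 0.987), an interval that includes rises as large as that of Mpeg1's lower bound. On the log2 scale it was 0.16 with the class term (adjusted p = 0.541) and 0.10 over the shallower libraries (adjusted p = 0.757). Its sign turned in fits to the deposited FPKM and when single libraries were left out. Vsig4 (ENSMAUG00000021950) lies at 1724234 to 1745824 on the minus strand of KB708237.1, in 9 exon blocks of 849 bases.

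Cd163, the receptor that takes up haemoglobin bound to haptoglobin, varied most among livers. Control libraries ranged from 1.37 to 18.8 CPM with a median of 8.48, and DC371739 libraries from 1.84 to 13.1 CPM with a median of 4.83. The coefficient of variation was 70.0% in control and 63.4% in DC371739 libraries, beside 11.1% and 14.3% for Laptm5. Of the treated libraries 1 lay above the control median, and none above the highest control. The log2 fold change was -0.55 (SE 0.48, adjusted p = 0.548), an interval from 0.355-fold to 1.31-fold. It was -0.24 without control replicate 6 and -0.90 without DC371739 replicate 7, both deeper libraries, and -0.05 by limma-voom. Among the 9 markers it alone had a negative value, which it kept with the class term (-0.31, adjusted p = 0.638) and over the shallower libraries (-0.32, adjusted p = 0.683). Cd163 (ENSMAUG00000000759) lies at 787059 to 805854 on the minus strand of KB708132.1, in 15 exon blocks of 2917 bases.

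**Figure D2:**
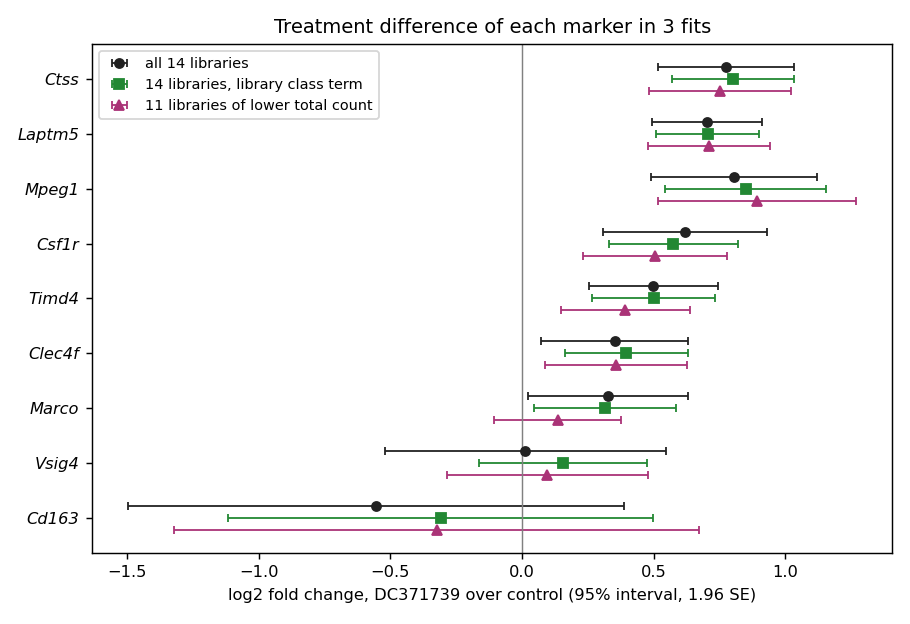
Log2 fold change of each marker, DC371739 over control, with approximate 95% intervals, over all 14 libraries (circles), with a term for library class (squares) and over the 11 shallower libraries (triangles). The intervals of Ctss, Laptm5, Mpeg1, Csf1r, Timd4 and Clec4f lie above 0 in each fit, and those of Vsig4 and Cd163 span 0.

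None of the 9 markers separated the groups completely, over 14 or 11 libraries. Over all genes, 0.296% had every DC371739 library above every control library over 14 libraries and 4.09% over the 11. Replicate 4 of each group stood nearest to the other group. Control replicate 4 was the highest control for 6 of the 9 markers, and DC371739 replicate 4 the lowest treated library for 7 of the 9. Without control replicate 4, Csf1r and Timd4 passed (each adjusted p = 0.0225), and 5 markers were called instead of 3, where 1.31% of all genes were called higher. Without DC371739 replicate 4 the same markers passed, with Csf1r at an adjusted p of 0.0499 and Timd4 at 0.0384, where 1.54% of all genes were called higher. The same 5 also passed without control replicate 7 (2.68% of all genes higher) and without DC371739 replicate 7 (5.03%), both of them deeper libraries. These were the only 4 of the 14 fits omitting a single library in which Csf1r and Timd4 passed. In the others their adjusted p reached 0.114 and 0.108. The replicate 4 libraries were singled out by these same values, so the added calls without them are a description and no independent support.

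In the model with a class term, the deeper libraries stood higher in Cd163 (1.43 on the log2 scale) and Vsig4 (1.02), lower in Csf1r (-0.48) and Marco (-0.33), and level in Laptm5 (0.02) and Timd4 (0.01). Clec4f (0.35), Mpeg1 (0.26) and Ctss (0.23) were modestly higher. These are estimates from 3 libraries against 11 and are given as a description. Cd163 was at 12.4 and 18.8 CPM in the deeper controls and 13.1 CPM in the deeper treated library, against 1.37 to 11.8 CPM in the 11 others. The part of library class in the treatment differences beyond these fits was not tested.

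Because counts scale with exon length, levels were compared between genes on the authors' FPKM, which divide each count by exon length and library size. Marco stood first in all 14 libraries, at 263 ± 62.8 FPKM in control and 331 ± 56.3 in DC371739 samples (SD, n = 7 each), which put it at percentile 97.0 of the genes with a symbol in control. Clec4f (61.8 ± 12.7 FPKM) and Ctss (60.8 ± 7.19 FPKM) did not differ beyond their spread in control, where Clec4f was the higher in 4 of 7 libraries. In all 7 DC371739 libraries Ctss was the higher, at 104 ± 22.2 against 79.0 ± 15.6 FPKM. Timd4 followed at 39.3 ± 7.95 FPKM in control, above Csf1r in every library. Csf1r (29.7 ± 8.95) and Mpeg1 (23.3 ± 5.63) overlapped, Csf1r being higher in 10 of 14 libraries. Laptm5 (18.6 ± 2.05), Vsig4 (10.2 ± 3.87) and Cd163 (3.90 ± 2.77 FPKM) came last, each below its predecessor in all 14 libraries. Apart from the exchange of Clec4f and Ctss the order of group means was the same after DC371739.

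**Figure D3:**
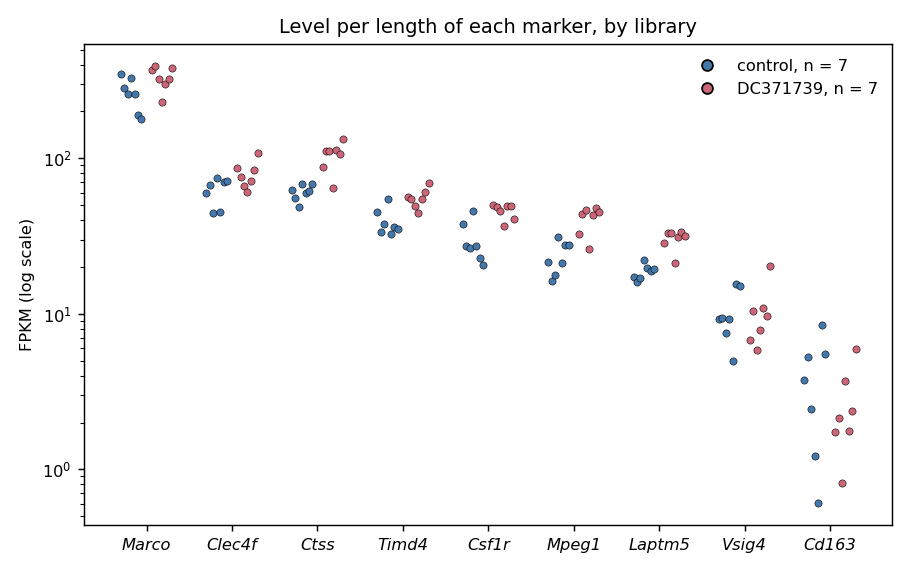
FPKM (log axis) of the 9 markers, ordered by control mean, in 7 control (blue) and 7 DC371739 (red) libraries. Marco lies above all others and Cd163 below, with the widest spread at Cd163 (0.607 to 8.50 FPKM in control).

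Whether a marker moved differently from Csf1r, the receptor of the lineage, was asked by subtracting each library's log2 CPM of Csf1r from that of every other gene and testing the difference with limma over all genes. None of the other 8 markers passed at an adjusted p of 0.05 in either direction, and 0 of the 8 had an unadjusted p under 0.05. Of all genes 68.5% were called, 8311 of 8327 as lower. Csf1r itself had a positive log2 fold change (0.62), so a gene without a difference comes out lower after this subtraction. That share therefore depends on the reference and gives no measure of how far the markers follow Csf1r. Ctss differed from Csf1r by 0.09 (95% interval -0.30 to 0.48), Laptm5 by 0.03 (-0.34 to 0.40) and Mpeg1 by 0.15 (-0.26 to 0.56) on the log2 scale. Timd4 was at -0.15 (-0.50 to 0.19), Clec4f at -0.30 (-0.72 to 0.11) and Marco at -0.31 (-0.67 to 0.04). The nearest to the threshold was Vsig4, at -0.67 (-1.30 to -0.03, adjusted p = 0.0721). Cd163 was at -1.03 (-2.36 to 0.30). The intervals bound the differences from Csf1r only approximately and do not show that the markers moved alike. Over the 11 shallower libraries again none passed and 1 of the 8, Marco, had an unadjusted p under 0.05, with adjusted p from 0.0675 for Marco to 0.598 for Timd4, where 55.8% of all genes did.

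Correlations of the markers within groups were computed on log2 CPM after the mean of each group was subtracted, over 14 libraries that differ in depth and class, and are given as descriptions. Ctss, Laptm5 and Mpeg1 varied together (Pearson's r 0.82 to 0.88 over 14 libraries, and 0.89 to 0.93 over the 11 shallower). Of 10010 genes with a symbol, Mpeg1 ranked 4 in likeness to Laptm5, and Laptm5 ranked 7 in likeness to Mpeg1. Csf1r varied with Marco (r = 0.80) and Timd4 (r = 0.71) over 14 libraries and with Timd4 at 0.94 over the 11. Most other pairs with Csf1r were low over 14 libraries and higher over the 11, at 0.25 and 0.78 with Mpeg1, 0.25 and 0.69 with Ctss, 0.41 and 0.63 with Laptm5, and 0.11 and 0.72 with Clec4f. Mpeg1 and Timd4 went from 0.52 to 0.71, and Mpeg1 and Marco from 0.07 to 0.56. The values between Csf1r or Marco and the lysosomal genes were thus higher without the 3 deeper libraries. Correlations with other libraries left out were not computed, and the reason was not tested. Vsig4 and Cd163 varied with each other (0.81 and 0.65). Cd163 ran against Laptm5 (-0.45 and -0.66).

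**Figure D4:**
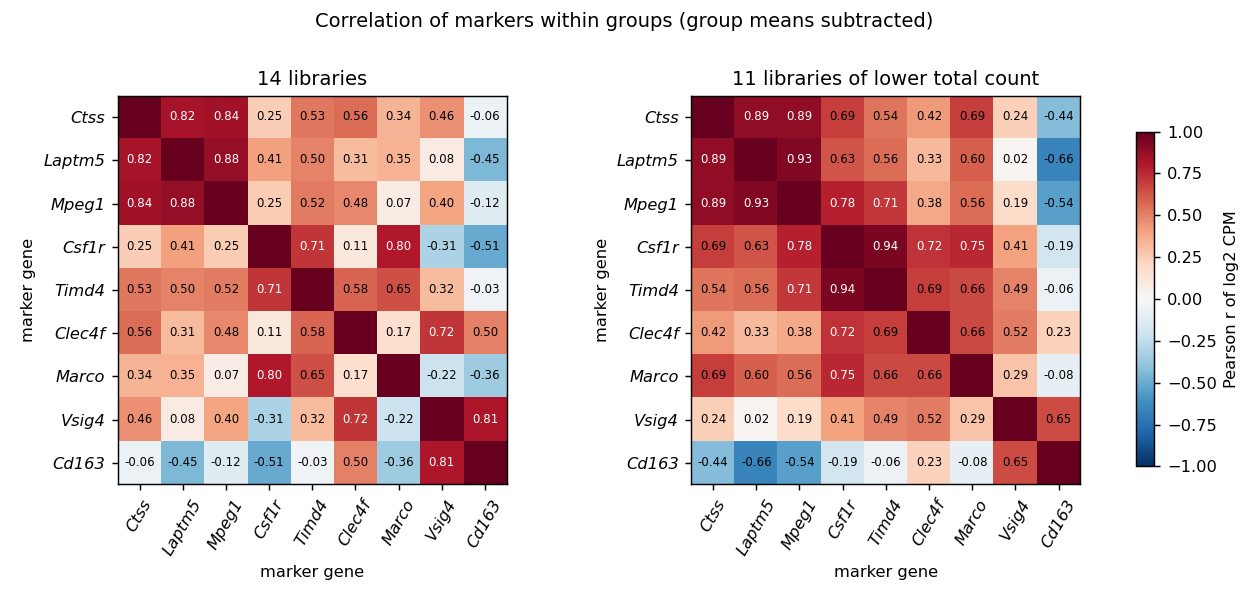
Pearson correlation of log2 CPM between markers after subtraction of group means, over 14 libraries (left) and the 11 shallower (right), on a scale from -1 (blue) to 1 (red). Ctss, Laptm5 and Mpeg1 form a block in both panels, and Vsig4 pairs with Cd163.

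The genes with a symbol most like each marker by this measure are given as the nearest 3 over 14 libraries. For Ctss they were Ctsk, another lysosomal cathepsin (r = 0.92), H2-Aa, an MHC class II chain (0.87), and Bub1b (0.87). Those of Laptm5 were the lysosomal phospholipase Pla2g15 (0.89), Igsf6 (0.88) and Ctsk (0.88), and all 3 were themselves called higher with DC371739 (log2 fold changes 0.69, 0.58 and 0.88). For Mpeg1 they were Ccn2 (0.91), Plxnc1 (0.90) and M6pr, a mannose 6-phosphate receptor (0.89). The neighbours of Timd4 were Nckap1l (0.87), a blood cell actin regulator that was also called higher (0.52, adjusted p = 0.0426), Aoah (0.84), which inactivates endotoxin, and Cd5l (0.84), a protein secreted by Kupffer cells. Csf1r was nearest to Aoah (0.92), Siglecg (0.92) and Ptk2b (0.91), and Marco to Tspan15 (0.92), 1600014C10Rik (0.91) and Lgals3bp (0.91). Clec4f was nearest to Mrpl45, Oma1 and Fhl1 (0.86 to 0.91), Vsig4 to F8, Zfp383 and Cul1 (0.92 to 0.94) and Cd163 to Edrf1, Mrpl22 and Nr2c2 (0.89 to 0.90). Apart from Ctsk, Pla2g15, Igsf6 and Nckap1l, none of these neighbours was called, where 1.24% of all tested genes were called higher. Log2 fold changes were -0.62, 0.80 and -0.003 for Ccn2, Plxnc1 and M6pr. They were -0.32, 0.02 and -0.09 for F8, Zfp383 and Cul1, and -0.18, -0.21 and 0.01 for Edrf1, Mrpl22 and Nr2c2.

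Other genes of the Kupffer cell programme were followed from a list of 24, of which 19 were matched and tested. None passed by edgeR over all 14 libraries, while 7 had an unadjusted p under 0.05 (20.4% of all genes did). DESeq2 called 3, where it called 7.18% of all genes, and limma-voom 9, where it called 22.5%. Of the 19, 13 were positive and 6 negative, with a median log2 fold change of 0.26. Nearest were Adgre1, a surface receptor used to mark mouse macrophages (0.56, adjusted p = 0.0734), the integrin Itgal (0.74, adjusted p = 0.0734) and Cd5l (0.36, adjusted p = 0.0855). These 3 rose with the class term, where 6 of the 19 rose (5.62% of all genes did) and none fell. Over the shallower libraries 5 rose and 2 fell, where 21.5% of all genes passed in either direction. The 2 that fell there were Hmox1 (-0.56, adjusted p = 0.00385) and Nr1h3 (-0.20, adjusted p = 0.0403). Adgre1 and Itgal were among the 5 that rose, and Cd5l did not pass in this fit (0.32, adjusted p = 0.0715). The complement subunits C1qa (-0.26), C1qb (-0.07) and C1qc (-0.06), which Kupffer cells express strongly, did not pass (adjusted p from 0.495 to 0.894). Summed over the 19 genes, the level was 752 to 1007 CPM in control and 722 to 1023 CPM in DC371739 libraries, nearly the same range. This sum weighs the abundant genes most. Control and DC371739 means were 189 and 178 CPM for Nr1h3, 145 and 187 for Cd5l, 104 and 82.1 for Hmox1, and 98.0 and 94.3 for C1qc.

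General macrophage and myeloid genes had 17 tested of 25 listed, all positive, with a median of 0.47. Of these 1 passed over all 14 libraries, where 1.24% of all genes passed as higher. Plek, a substrate of protein kinase C in blood cells, did not (0.69, adjusted p = 0.0603). In the fit with library class 9 rose (5.62% of all genes did), and 5 did so over the shallower libraries (11% of all genes). The sum of the list was 265 to 350 CPM in control and 270 to 456 CPM in DC371739 libraries.

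Genes linked to lipid-associated or newly recruited macrophages had 14 tested of 18, a median of 0.84 and 3 called higher (1.24% of all genes). Cd44, a receptor for hyaluronan, rose from 7.18 ± 1.497 to 15.3 ± 5.88 CPM. The chemokine receptors Ccr1 (1.41, adjusted p = 0.0322) and Cx3cr1 (1.40, adjusted p = 0.0382) rose from low levels, with no more than 74 and 41 counts in any library. Gpnmb (1.40, adjusted p = 0.0907) and Trem2 (1.149, adjusted p = 0.154), further markers of such cells, did not pass over all 14 libraries. Gpnmb passed with the class term (1.73, adjusted p = 0.0195) and over the shallower libraries (1.85, adjusted p = 0.0153), and Trem2 over the shallower libraries (1.598, adjusted p = 0.0392) but not with the class term (1.24, adjusted p = 0.0763). Trem2 too was low, with no more than 42 counts in any library. Ccr2, which marks recruited monocytes, was not matched. None of the 14 was at 0 in any library. With the class term 7 rose (5.62% of all genes did), and 7 rose over the shallower libraries (11% of all genes). The next list held colony stimulating factors, chemokines and receptors, of which Cx3cr1 and Ccl2 stand in the former list too. Where 1.24% of all genes rose, 4 of its 13 tested genes did. Among them were the chemokines Ccl3 (1.37, adjusted p = 0.0361) and Ccl4 (1.18, adjusted p = 0.0387), and Cx3cr1 with the values above. Ccl3 and Ccl4 were low as well, with no more than 66 and 45 counts in any library. The class term gave 6, and the shallower libraries 9, beside the same shares of all genes as above.

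Lysosomal genes that most cells express were set beside Ctss and Laptm5. Of 24 tested, 2 rose (1.24% of all genes did) and the median was 0.13. Ctsb, cathepsin B, rose from 434 ± 76.5 to 647 ± 57.2 CPM (log2 fold change 0.58, adjusted p = 0.0201), and Psap, the precursor of the saposins, from 645 ± 83.0 to 932 ± 122 CPM (0.53, adjusted p = 0.0201). Ctsh came next by p (0.66, adjusted p = 0.1004). The regulators Tfeb (-0.01) and Tfe3 (0.32) did not pass, nor did Laptm4a (-0.05) and Laptm4b (-0.04), relatives of Laptm5 found in many cell types. In each of the fits that set the deeper libraries apart, 6 of the 24 rose.

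**Figure D5:**
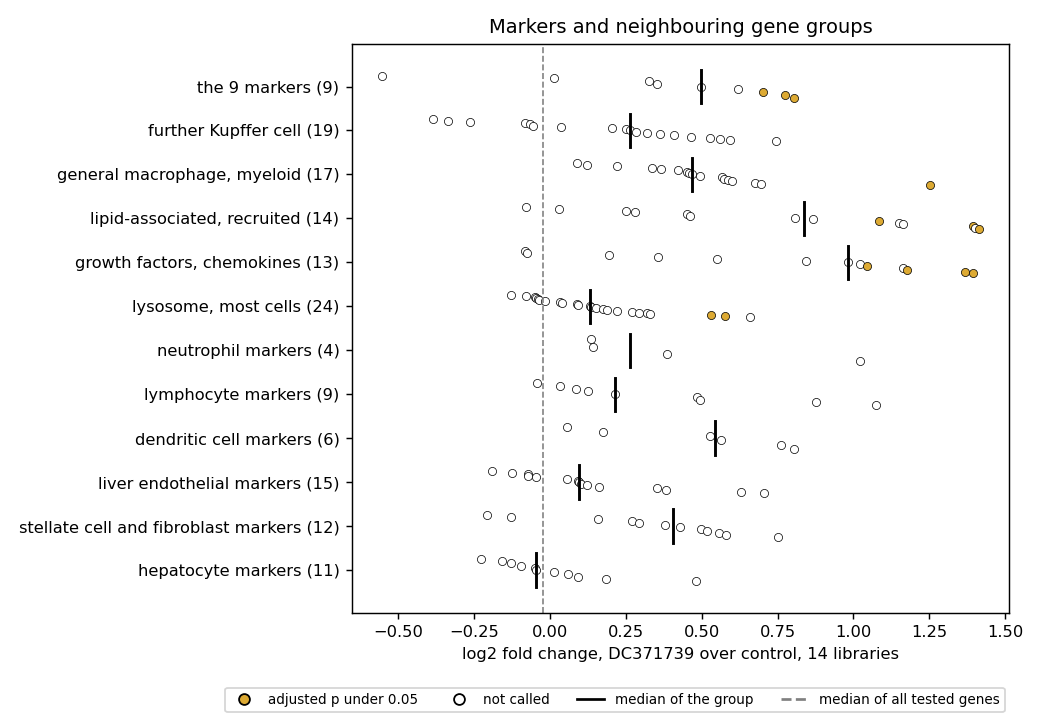
Log2 fold change over 14 libraries of each tested gene in the marker list and in 11 neighbouring lists, with the number tested in brackets; filled points passed an adjusted p of 0.05 and bars are medians. The 9 markers have a median of 0.50, hepatocyte markers of -0.05 and all tested genes (dashed) of -0.02.

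Markers of other cell types that whole liver holds moved in part beside the macrophage genes. Neutrophil markers, 4 tested of 12, summed to 10.6 to 19.1 CPM in control and 20.4 to 29.9 CPM in DC371739 libraries. The groups did not overlap in this sum, and the share of other gene sums that do so was not computed. Most of it came from Ltf (means of 9.05 and 11.8 CPM) and Csf3r (3.99 and 8.10 CPM). None of the 4 was called. Csf3r was nearest (1.02, adjusted p = 0.0565), followed by Ltf (0.39), Cxcr2 (0.14) and S100a8 (0.13). Lymphocyte markers, 9 tested of 18, summed to 9.22 to 16.6 and 10.6 to 24.3 CPM, with Prf1 (1.08), Nkg7 (0.88) and Zap70 (0.48) of smallest p and none called. Dendritic cell markers, 6 of 12, summed to 9.33 to 21.2 and 15.3 to 29.8 CPM, led by Cd83 (0.76), Zbtb46 (0.56) and Ccr7 (0.53), and none was called. Endothelial markers summed to 298 to 440 and 361 to 480 CPM over 15 genes, with Pecam1 at 0.71 (adjusted p = 0.0566), Cdh5 at 0.38 and Vwf at 0.63. Stellate cell and fibroblast markers summed to 272 to 392 and 342 to 545 CPM over 12 genes, with Col1a2 (0.58), Col3a1 (0.52) and Des (0.56) first. Hepatocyte markers had a median of -0.05 over 11 genes, among them Hnf4a (0.48), Ttr (-0.23) and Asgr2 (-0.16), and none was called. At an unadjusted p under 0.05 edgeR gave 1 of 4 neutrophil, 3 of 9 lymphocyte, 3 of 6 dendritic, 4 of 15 endothelial, 4 of 12 stellate and 1 of 11 hepatocyte genes, beside 20.4% of all genes. DESeq2 called 1, 1, 1, 2, 2 and 1 of them (7.18% of all genes) and limma-voom 1, 1, 3, 4, 4 and 2 (22.5%), in the same order. With the class term 1 gene of each of these lists rose, and 2 of the endothelial list, where 5.62% of all genes did. Over the shallower libraries 1, 1, 1, 4, 2 and 2 rose, where 11% of all genes did. No tested marker of these lists was at 0 in any library. Their part in the differences of the 9 markers was not tested.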

How the data were processed

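Liver RNA of 7 control and 7 DC371739 samples was sequenced. The submitters' processing notes list HISAT2 (2.2.1), featureCounts (2.0.0) and edgeR without settings, and no genome build, annotation or strand setting was given. The authors deposited whole-number counts per Ensembl gene and, in a second table, FPKM per library, beside their own log2 fold changes, mean log2 CPM and p-values, raw and adjusted, for genes with a symbol. From the values, each deposited FPKM equals count over exon length over 1 constant per library (largest relative deviation 1.30e-07). Reads shared between near-identical genes, or with antisense genes, cannot be told apart.

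The main test was edgeR's (4.0.16, R 4.3.3; quasi-likelihood F-test, robust estimates, TMM scaling, default filter with a minimum count of 10), with the group alone in the model and Benjamini-Hochberg adjustment over all 12166 genes; an adjusted p under 0.05 was called. Standard errors of the edgeR fits are the absolute log2 fold change over the root of F. Intervals are approximate and cover the spread between samples. Log2 CPM used a prior count of 2. limma 3.58.1 tested values scaled to Csf1r. The edgeR and limma tests were run on simulated counts with known changes. No exon of the 9 markers overlapped an exon of another listed gene. Over 42 within-group pairs of libraries, chi-square per degree of freedom was at least 11.2, and none was treated as a duplicate.

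The markers, the 11 other lists and the alternatives were chosen with earlier results of these data known. The genes named were all markers, the 3 of smallest p and any called gene of each list, and the 3 nearest genes of each marker by correlation, except 3 genes of these lists that are not reported here; Csf1, Il34, C1qa, C1qb, C1qc, Gpnmb, Trem2, Tfeb, Tfe3, Laptm4a and Laptm4b were named after their values were seen. Alternatives were other scalings, filters, DESeq2 1.42.0, limma-voom with sample weights, limma fitted to log2 FPKM with a pseudocount of 1 or 0.1, a replicate block, a library class term, and libraries left out; edgeR without robust estimates was added after the data were seen.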

Additional observations from a re-analysis of the deposited data

Results flagged for a closer look

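In 18 groups of 7 values (9 markers in 2 groups), the gap of the highest or lowest library to its nearest neighbour was compared with the group's range, and 2 exceeded the 95% limit of Dixon's test; chance gives about 1 in 20. Laptm5 stood at 34.9 CPM in DC371739 replicate 4, against 46.5 to 55.3 CPM in the other 6 treated libraries. Its gap was 0.569 of the range, only just above the limit of 0.568. Vsig4 stood at 12.9 CPM in DC371739 replicate 7, one of the deeper libraries, against 3.85 to 7.08 CPM in the other 6, a gap of 0.643 of the range. Neither was explained or tested further.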

How the results depend on the processing

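Ctss and Laptm5 were called in 27 of 28 alternative fits and Mpeg1 in 21, always higher. Timd4 was called in 14 and Csf1r in 12 of 28, Clec4f in 2, and Marco, Vsig4 and Cd163 in none. Upper-quartile scaling called 5 markers, where it called 2.37% of all genes. limma also called 5 on log2(FPKM + 1) with a filter (2.63% of all genes) and without (2.26%), and on log2(FPKM + 0.1) (2.28%). DESeq2 called 840 genes in all, 5 markers and 28 genes of the other lists, where the main result was 225, 3 and 9. limma-voom called 2739, 6 and 55, the library class term 1499, 6 and 38, and the 11 shallower libraries 2635, 5 and 42. With single libraries left out these numbers ran from 25 to 1069, from 2 to 5 and from 1 to 27. No scaling moved the median of all genes by over 0.1 on the log2 scale.

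With the replicate number as a block, 8 genes were called in all, 0 of the 9 markers and 0 of the 141 genes of the other lists by edgeR (7 and 61 at an unadjusted p under 0.05), with an adjusted p of 0.0632 for Ctss, 0.0574 for Laptm5 and 0.0669 for Mpeg1. The labels do not say that equal numbers mark related samples. Same-numbered samples had correlations of -0.13 to 0.55, and 1 of 7 control libraries was most like the DC371739 library of its number. The highest correlation belonged to replicate 7, whose control and DC371739 libraries are both of the deeper class, and the next was 0.12.

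The sign of Vsig4 turned to -0.0041 with limma on log2(FPKM + 1), with or without a filter, to -0.0040 on log2(FPKM + 0.1) and to -0.0075 with the replicate block, and ran from -0.24 to 0.15 with single libraries left out. The lowest count in a library was 57 for Vsig4 and 24 for Cd163. The cause of these shifts was not tested.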
